A study of Homo sapiens with 14 samples.

Results

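The 2 n-Myc lines of this study were compared before any lenalidomide was given: SH-EP cells of the n-Myc SPARK-ON line in DMSO (3 libraries) and SH-EP cells of the n-Myc control line in DMSO (3 libraries). These are the 6 DMSO libraries, chosen by their labels, of 14 samples in the series. SH-EP is a long-established line of human neuroblastoma cells. Gene expression was measured by sequencing polyA RNA. In the series, lenalidomide is added to bring n-Myc of the SPARK-ON line into phase-separated droplets at an unchanged protein level, and the control line lacks SPARK-ON. DMSO is the solvent, so this comparison asks how the lines differ while, per the series design, n-Myc of the SPARK-ON line is still below its threshold for phase separation. The design text calls the SPARK-ON line a single clone and does not say how the control line was derived. What SPARK-ON does and what sets 1 clone apart from another line therefore cannot be told apart here. The labels give no dose or time, and do not say whether replicates are separate cultures. P-values measure only the spread between libraries, which may be technical, and it was estimated from 11 libraries, the 6 in DMSO and 5 of the same lines with lenalidomide.

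n-Myc, the product of MYCN, is a transcription factor that binds E-box DNA as a dimer with MAX. It drives ribosome production, translation and cell growth, and its amplification marks aggressive neuroblastoma. Neuroblastoma cells occur in an adrenergic state, close to noradrenergic neurons, and a mesenchymal state, close to neural crest cells, and SH-EP is a standard model of the mesenchymal one. Mesenchymal neuroblastoma cells are known for stronger inflammatory and antigen presentation programmes than adrenergic ones.

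The values are raw read counts per gene, of which 16056 of 61533 genes passed the filter on low counts. Total counts were 14647340 to 19244198 in SPARK-ON libraries and 17212452 to 21511684 in control libraries. A count of 0 allowed up to 0.153 to 0.198 CPM in a SPARK-ON library and 0.143 to 0.178 CPM in a control library (3 reads, counting error only), where CPM is the read count scaled to library size with TMM factors. The first principal component held 70.1% of the variance and separated the lines. Control replicate 1 stood apart from the other control libraries on the third component. Against the mean of the other 2 control DMSO libraries it was higher in short genes, by a median of 0.23 on the log2 scale in the shortest 25% of transcripts, and lower in long ones, with a median of -0.22 in the longest 25%, so counts are also given without it where they move. As in mesenchymal neuroblastoma cells, VIM, CD44 and FN1 were read in all 6 libraries, while the adrenergic genes PHOX2A, TH and ISL1 had 0 reads in all 6. Of 18 markers of blood, endothelial, epithelial, liver, muscle and other cells, 8 had 0 reads in all 6 libraries, among them CD3E, KRT20, HBB, MYH7, INS and TYR. The 3 that passed the filter (MLANA, CDH5 and VWF) summed to 1.38 to 2.71 CPM in SPARK-ON libraries and 1.73 to 2.60 CPM in control libraries.

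MYCN was not called between the lines. MYCN (ENSG00000134323.12, chromosome 2, 15940564 to 15947007, GRCh38) had 2248, 2398 and 2186 CPM in SPARK-ON libraries, against 2089, 2574 and 2615 CPM in control libraries. The groups overlapped, and the log2 change, SPARK-ON over control, was -0.09 (SE 0.082, adjusted p = 0.404). The counts cannot tell the MYCN locus from an introduced MYCN, and say nothing of the protein. MYC had a change of 0.42 and MAX of -0.12, without a call. Of 24 tested genes of the MYC and MAX network, 3 were higher, 7 lower and 14 not called, near the 41.6% called over all genes tested. The lower ones included MXI1 (-0.84), MXD4 (-0.66) and MXD3 (-0.94), whose proteins compete with Myc for MAX, and MNT, another such repressor, was higher by 0.29.

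The lines differed across much of the transcriptome. edgeR's quasi-likelihood test called 6675 genes at an adjusted p below 0.05, or 41.6% of the 16056 tested, with 3395 higher (21.1%) and 3280 lower (20.4%) in SPARK-ON cells. Most changes were small, with a median size of 0.70 on the log2 scale among the genes called. At a log2 change of at least 1 there were 2396 genes (14.9%), of which 1574 were higher and 822 lower. The 3 SPARK-ON libraries lay wholly above or wholly below the 3 control libraries for 8159 genes (50.8%). Counts in gene lists are read against these shares. Without control replicate 1, 3433 genes were higher and 3494 lower. Scaling by total count instead of TMM moved the median of all genes by about 0.1 on the log2 scale, to 0.10, and gave 4262 higher and 2547 lower genes, or 62.6% higher.

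**Figure D1:**
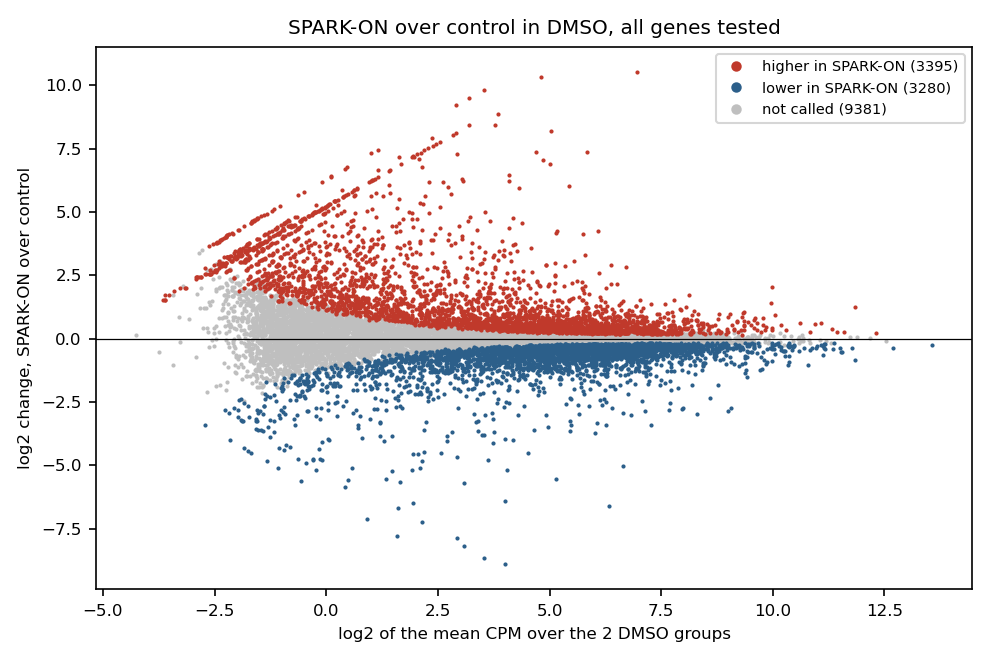
Log2 change, SPARK-ON over control in DMSO (y axis), against the log2 of the mean CPM (x axis), with 1 point for each of the 16056 genes tested. Red points are the 3395 genes called higher in SPARK-ON, blue the 3280 called lower, and grey were not called; genes with 0 reads in a group are drawn at their bound, which makes the slanted edge.

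The largest positive changes were genes with few or no reads in the control line. NLRP1, an inflammasome sensor (ENSG00000091592.16, chromosome 17, 5499427 to 5619424), had 254, 258 and 237 CPM in SPARK-ON libraries, against 0, 0.238 and 0.239 CPM in control libraries, a log2 change of 10.54 (SE 0.23, adjusted p = 6.96e-16). CCDC172 (chromosome 10, 116324428 to 116380029) had 16.7, 20.9 and 17.5 CPM in SPARK-ON libraries and 0 reads in all 3 control libraries, which makes it at least 342-fold higher (3 reads over the control group as the floor). ACTR3C was at least 281-fold, LINC01234 at least 219-fold, RADX at least 206-fold and KLHDC7A at least 195-fold higher on the same floor. No control library had a read of any of these 5 genes.

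Other genes of this kind had a few control reads. CPPED1, a phosphatase gene, had 2880 reads in SPARK-ON libraries and 2 in control libraries, a ratio of CPM of 1574 with an exact counting interval of 435 to 13000. SAA1, an acute phase protein of inflammation, had 770 reads in SPARK-ON libraries and 1 in control libraries, a ratio of 842 (151 to 33290). SSX1, a cancer-testis antigen, and SLC12A7, a potassium chloride cotransporter, changed by 8.44 and 8.21. SULT1A1, ANXA8 and SSX1 have near-identical copies in the genome, so reads shared between copies may be lost or assigned to the wrong copy. Across all genes tested, 181 had 0 reads in the control group and passed the floor in SPARK-ON cells, and 20 had the reverse pattern.

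The largest negative changes were genes with few or no reads in SPARK-ON cells. C5orf46 (chromosome 5, 147880726 to 147906538) had 0 reads in all 3 SPARK-ON libraries and 26.9, 19.3 and 23.5 CPM in control libraries, at least 400.1-fold lower. DSG2, a desmosomal cadherin (chromosome 18, 31498043 to 31549008), also had 0 reads in SPARK-ON libraries, against 14.4, 16.3 and 20.4 CPM in control libraries, at least 295-fold lower. PCK1, a gluconeogenic enzyme, had 3 reads in SPARK-ON libraries and 1800 in control libraries, a ratio of control over SPARK-ON of 549 (187.5 to 2664). IGFBP5, which binds insulin-like growth factors (chromosome 2, 216672105 to 216695525), had 1.32, 2.11 and 1.53 CPM in SPARK-ON libraries, against 132, 182 and 163 CPM in control libraries, a change of -6.59 (SE 0.16, adjusted p = 1.44e-15). CNR1, the cannabinoid receptor, had 6.54, 5.61 and 5.47 CPM in SPARK-ON libraries and 177, 211 and 191 CPM in control libraries (-5.04). SULF1, a sulfatase of heparan sulfate (-6.40), and PTPRZ1, a receptor phosphatase of glia and their precursors (-5.71), were lower too. So were GPM6B, a neural membrane proteolipid (-5.52), and FABP7, a fatty acid binding protein of radial glia (-4.10). Genes with the largest changes were named only where the 2 groups did not overlap.

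**Figure D2:**
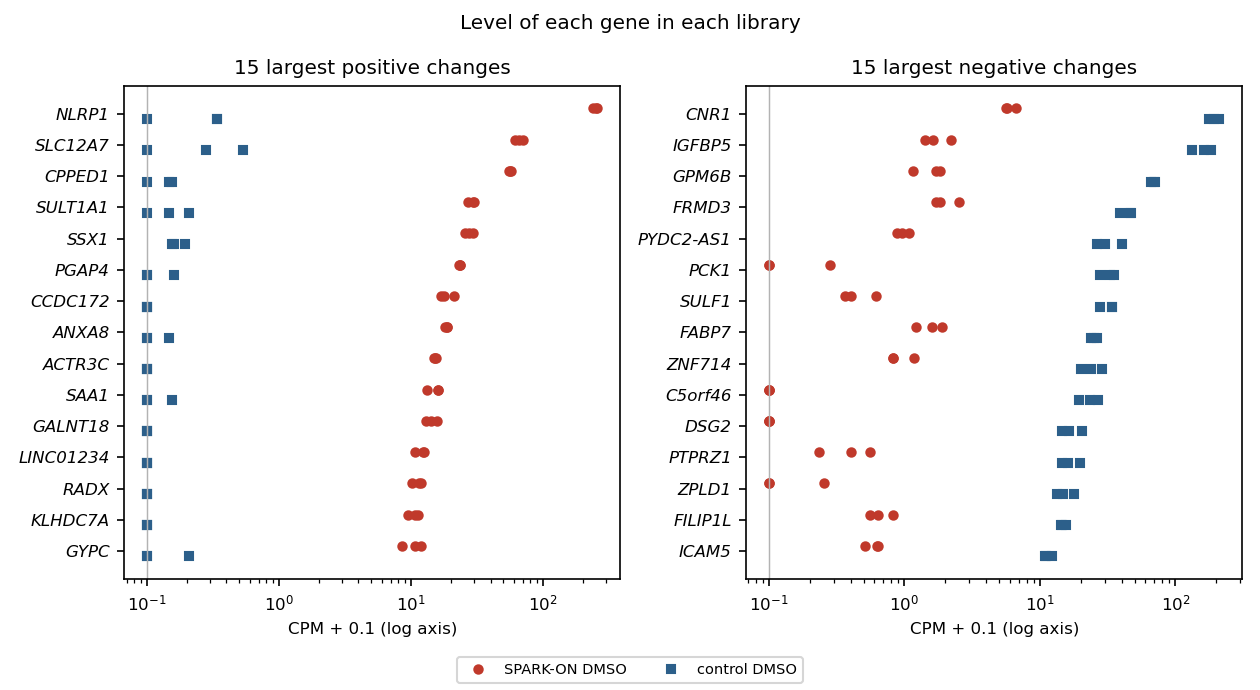
CPM plus 0.1 on a log axis in each of the 6 DMSO libraries for the 15 largest positive (left panel) and 15 largest negative (right panel) changes; red circles are SPARK-ON libraries, blue squares control libraries, and the grey line marks 0 CPM. Genes were drawn only if the 3 SPARK-ON libraries lay on 1 side of the 3 control libraries, so that separation is part of the choice. NLRP1, for example, had 237 to 258 CPM in SPARK-ON libraries and 0 to 0.239 CPM in control libraries.

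Complement, NF-kappaB, antigen presentation and interferon-stimulated genes were more often higher than lower in SPARK-ON cells. NF-kappaB is held in the cytoplasm by inhibitor proteins and, once free, binds kappaB sites in the promoters of cytokines, adhesion molecules and of its own inhibitors. MHC class I genes place peptides on the cell surface for T cells. The promoters of TNFAIP3, NFKBIA and B2M, called higher and members of these lists, are shown for the kappaB consensus, and that of CA9, the most strongly lowered hypoxia gene below, for the letters ACGTG, the core bound by hypoxia-inducible factors. Each is the 250 bases before the RefSeq gene start (GRCh38.p14), given 5′ to 3′ on the gene's strand, and capitals mark the motif on either strand.
TNFAIP3, chr6:137867009-137867258, plus strand: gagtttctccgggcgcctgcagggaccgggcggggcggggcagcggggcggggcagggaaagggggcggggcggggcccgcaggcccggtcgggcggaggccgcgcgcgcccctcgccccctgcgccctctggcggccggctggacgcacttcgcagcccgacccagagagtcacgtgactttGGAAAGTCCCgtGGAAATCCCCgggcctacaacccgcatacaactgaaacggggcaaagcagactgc
NFKBIA, chr14:35404750-35404999, minus strand: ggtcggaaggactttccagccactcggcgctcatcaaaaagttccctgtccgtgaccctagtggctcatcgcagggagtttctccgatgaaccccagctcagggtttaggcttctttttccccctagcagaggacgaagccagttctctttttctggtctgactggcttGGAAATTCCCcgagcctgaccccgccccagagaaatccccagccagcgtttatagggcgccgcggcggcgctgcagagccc
B2M, chr15:44711267-44711516, plus strand: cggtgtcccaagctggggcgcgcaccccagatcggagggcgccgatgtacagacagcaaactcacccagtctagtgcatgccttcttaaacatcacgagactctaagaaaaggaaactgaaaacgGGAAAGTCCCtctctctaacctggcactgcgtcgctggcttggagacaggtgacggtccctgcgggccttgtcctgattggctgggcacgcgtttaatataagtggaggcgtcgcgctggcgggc
CA9, chr9:35673678-35673927, plus strand: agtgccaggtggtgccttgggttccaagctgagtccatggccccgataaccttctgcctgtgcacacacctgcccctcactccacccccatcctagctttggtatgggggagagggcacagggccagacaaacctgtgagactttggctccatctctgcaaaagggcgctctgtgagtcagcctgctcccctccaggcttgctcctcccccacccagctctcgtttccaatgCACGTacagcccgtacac

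The kappaB consensus was found in a window of 250 bases before to 50 after a start for 7 of 12 NF-kappaB genes called higher that had a RefSeq window (58.3%) and for 7 of 12 such antigen presentation genes (58.3%). It was found for 17.2% of 11366 tested genes with a window, and in 11.3% of all 35116 windows. Among members called lower with a window, 1 of 1 NF-kappaB gene and 0 of 1 antigen presentation gene had it. The lists were chosen by pathway, so these shares describe the lists and not the direction of change. A match is a description of the letters and no evidence of binding.

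Of 23 tested members among 37 of the NF-kappaB and cytokine list, 15 were higher, 2 lower and 6 not called. The median change was 1.23, against 0.01 over all genes tested. Members nearly unread in either line could pass the filter only through the other, which tilts the count and the median toward the line where they are high. NFKB2, a subunit of the non-canonical arm, had 78.6, 85.8 and 88.7 CPM in SPARK-ON libraries, against 20.6, 22.5 and 19.9 CPM in control libraries (2.01, SE 0.084, adjusted p = 1.5e-12). NFKBIA, the inhibitor that NF-kappaB itself induces, had 59.7, 69.5 and 62.6 CPM in SPARK-ON libraries and 25.5, 22.5 and 19.6 CPM in control libraries (1.51, SE 0.10, adjusted p = 1.75e-09). TNFAIP3, a ubiquitin-editing inhibitor of the pathway, had 13.7, 13.3 and 13.1 CPM in SPARK-ON libraries and 4.94, 3.63 and 3.97 CPM in control libraries (1.67). The lowest SPARK-ON library was above the highest control library for each of these genes. ICAM1, a leukocyte adhesion molecule, was higher by 2.74, BIRC3, an inhibitor of cell death, by 2.40 and RELB, the partner of NFKB2, by 0.80. The cytokine genes CCL2 (2.06), IL32 (3.73), IL1B (3.21), IL1A (3.06), CXCL3 (1.88) and IL11 (1.23) were higher too, of which IL1A overlapped between the groups. LIF (-0.78) and NFKBIB (-0.30) were lower. RELA, with -0.18, NFKB1, with 0.18, and REL, with 0.11, which encode the other subunits, were not called.

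Of 11 tested complement genes among 23, 7 were higher and none lower, with 4 not called. Members nearly unread in the control line, such as C3, passed the filter only through SPARK-ON libraries, which tilts the count and the median upward. C3, the central component (ENSG00000125730.17, chromosome 19, 6677704 to 6730562), had 55.1, 47.8 and 50.9 CPM in SPARK-ON libraries, against 0.217, 0.178 and 0.478 CPM in control libraries (7.37, SE 0.18, adjusted p = 1.99e-15). C1S and C1R, the proteases that start the classical pathway, were both higher, C1R by 2.24, and CLU, which blocks the terminal complex, by 2.16. C1S had 22.9, 22.7 and 23.3 CPM in SPARK-ON libraries and 0.868, 0.654 and 0.621 CPM in control libraries. The SPARK-ON libraries lay above the control libraries in each of these genes. The liver marker ALB had 0 to 2 reads in each of the 6 libraries.

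Of 21 tested antigen presentation genes, 15 were higher and 2 lower, with a median of 0.82. HLA-B, a class I heavy chain, had 12.4, 10.36 and 11.3 CPM in SPARK-ON libraries, against 0.0543, 0.357 and 0.478 CPM in control libraries (5.20, SE 0.36, adjusted p = 1.58e-09). B2M, the light chain, had 1152, 1066 and 1141 CPM in SPARK-ON libraries and 706, 585 and 603 CPM in control libraries (0.83). NLRC5, the transcriptional activator of class I genes, was higher by 1.07 and TAP1, the peptide transporter, by 0.94. The immunoproteasome genes PSMB8 (0.76), PSMB9 (1.88) and PSMB10 (1.52) were all higher. HLA-C (2.08), HLA-E (0.79) and HLA-F (3.53) were higher as well, with the limit that HLA genes are alike and vary between people, which affects read assignment. CALR (-0.32) and PDIA3 (-0.17), chaperones that help load peptide, were lower.

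Interferon-stimulated genes were mixed. Of 34 tested, 17 were higher, 3 lower and 14 not called, with a median of 0.47. OAS2 (4.23), MX2 (3.32), OAS1 (3.23) and SAMD9L (2.57), antiviral effectors, were higher, while ISG15 (-0.58) and IFITM1 (-1.25) were lower. STAT2, with -0.12, which transmits the interferon signal, was not called.

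**Figure D3:**
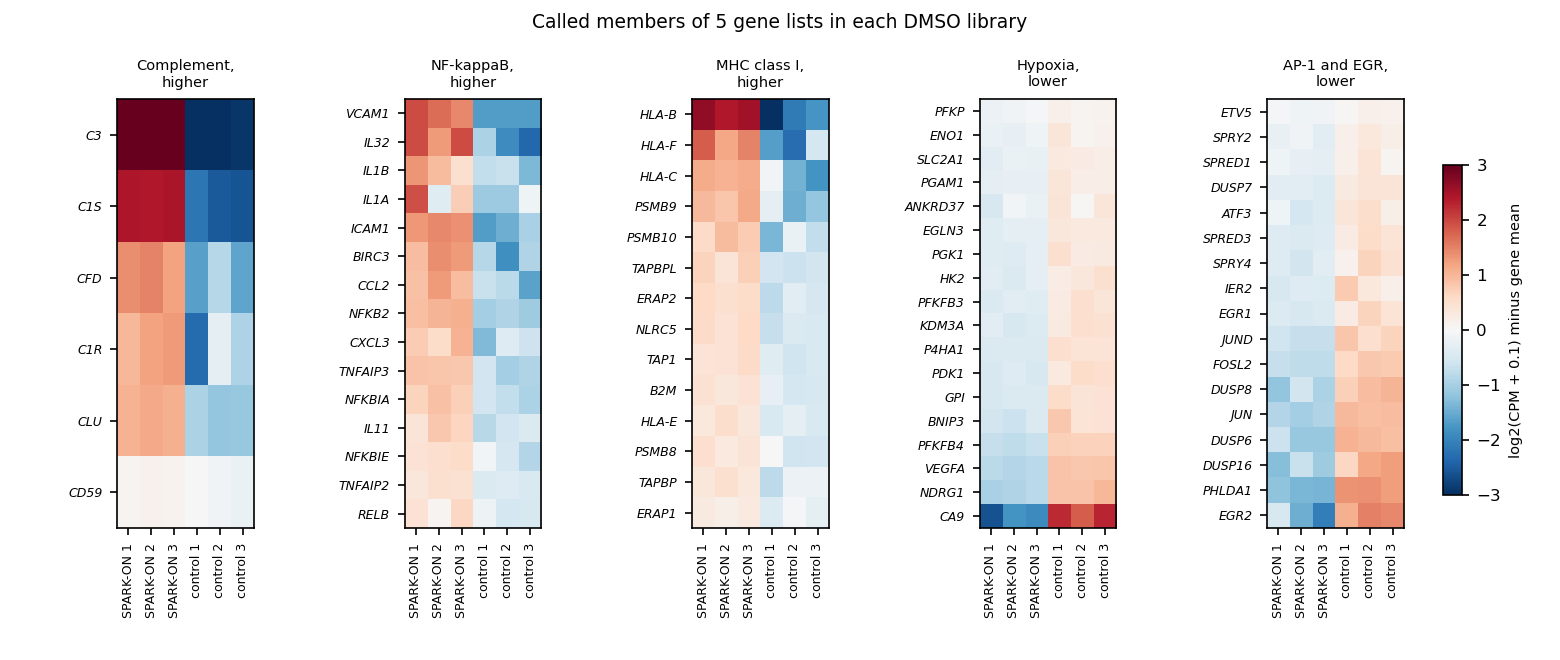
Log2(CPM + 0.1) minus the gene's mean over the 6 DMSO libraries, by color from blue (lower) to red (higher), which saturates at 3, for most members called higher in 3 gene lists and all called lower in the hypoxia and AP-1 lists (columns: SPARK-ON 1 to 3, then control 1 to 3). C3 reaches the ends of the scale, and the hypoxia and AP-1 genes drawn are blue in SPARK-ON libraries and red in control libraries.

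Genes of glycolysis and the hypoxia response were more often lower than higher in SPARK-ON cells. Hypoxia-inducible factors switch on glucose transport, glycolysis and vessel growth when oxygen is low. Of 28 tested members, 18 were lower, 3 higher and 7 not called, with a median of -0.57. HIF1A, an oxygen-regulated subunit that is not a member of this list (chromosome 14, 61695513 to 61748259), had 360, 357 and 348 CPM in SPARK-ON libraries, against 935, 1105 and 1026 CPM in control libraries (-1.52, SE 0.082, adjusted p = 4.65e-11). CA9, a carbonic anhydrase that is a classic hypoxia target, had 0.180, 0.396 and 0.358 CPM in SPARK-ON libraries and 7.98, 5.95 and 8.36 CPM in control libraries (-4.55, SE 0.30, adjusted p = 6.96e-10). VEGFA, the vessel growth factor, had 73.9, 69.6 and 73.5 CPM in SPARK-ON libraries and 232, 226 and 230 CPM in control libraries (-1.66). The SPARK-ON libraries lay below the control libraries in HIF1A, CA9 and VEGFA without overlap. EPAS1, which encodes the other main oxygen-regulated subunit, was higher, with its values given at the end. The counts say nothing of the HIF1A and EPAS1 proteins. NDRG1 (-1.79), PFKFB4 (-1.41), BNIP3 (-1.10), PDK1 (-0.91), GPI (-0.92), PGK1 (-0.68) and HK2 (-0.70) were lower as well. LDHA (0.33), ADM (0.75) and CA12 (0.92) were higher, so the list did not move as a block, and GAPDH (-0.06) and PKM (0.02) were not called. ACGTG was found in the promoter windows of 10 of 16 lowered members with a window (62.5%), against 32.1% of tested genes and 21.4% of all windows. Of 3 higher members with a window, 1 had it (33.3%), and this list too was chosen by pathway. ACGTG lies within the E-box CACGTG, which stood in the windows of 12.8% of genes called higher, 10.9% of genes called lower and 12.3% of tested genes.

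Immediate early genes and growth factor feedback genes were more often lower than higher. AP-1 is a dimer of JUN and FOS family proteins that follows growth factor signals, and dual specificity phosphatases and sprouty proteins damp those signals. Of 31 tested members, 17 were lower, 4 higher and 10 not called, with a median of -0.44. JUN had 36.1, 32.7 and 35.9 CPM in SPARK-ON libraries, against 132, 125 and 127 CPM in control libraries (-1.87, SE 0.081, adjusted p = 2.45e-12). FOSL2 (-1.47), JUND (-1.34), EGR1 (-0.90), EGR2 (-3.06) and PHLDA1 (-2.66) were lower, as were the phosphatases DUSP6 (-1.95), DUSP16 (-2.09) and DUSP8 (-1.85). DUSP10, which acts on stress kinases, went the other way, with 63.8, 65.5 and 55.9 CPM in SPARK-ON libraries and 9.33, 7.56 and 6.69 CPM in control libraries (2.98). FOS, with -0.55, was not called.

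The most abundant genes with a log2 change of at least 1 included both directions. FTL, the ferritin light chain, had 5198, 5214 and 5230 CPM in SPARK-ON libraries, against 2559, 1905 and 2064 CPM in control libraries (1.26, SE 0.087, adjusted p = 1.48e-09), although it lies on chromosome 19, where most genes were lower. SQSTM1, an autophagy receptor, had 1609, 1630 and 1675 CPM in SPARK-ON libraries and 409, 396 and 394 CPM in control libraries (2.04). TXNRD1, thioredoxin reductase, had 1398, 1423 and 1501 CPM in SPARK-ON libraries and 529, 579 and 531 CPM in control libraries (1.40). FTH1, the ferritin heavy chain (1.06), and CTSB, a lysosomal protease (1.02), were higher too. VIM, the intermediate filament of mesenchymal cells, had 535, 501 and 527 CPM in SPARK-ON libraries and 1355, 1083 and 1182 CPM in control libraries (-1.21). CD44, a hyaluronan receptor (-1.24), MARCKS, a membrane substrate of protein kinase C (-1.23), PLOD1, a collagen lysyl hydroxylase (-1.34), SCD, a fatty acid desaturase (-1.09), and TMSB4X, an actin-binding peptide (-1.02), were lower. Ferritin, TMSB4X and ribosomal protein genes have many processed pseudogenes, whose share of the reads was not stated.

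Lineage genes changed in both directions. Of 19 tested neural crest and Schwann precursor genes, 6 were higher and 9 lower. SOX9, a crest and cartilage factor, had 48.8, 50.1 and 52.0 CPM in SPARK-ON libraries, against 339, 362 and 378 CPM in control libraries (-2.84, SE 0.075, adjusted p = 4.43e-15). SOX2 (-1.33), SOX5 (-2.06) and DLX5 (-1.98) were lower, while MSX1 (1.61), MSX2 (3.85), SOX6 (2.24) and DLX2 (1.25) were higher. Of 16 tested neuronal genes, 8 were higher, among them the adhesion molecule L1CAM (4.04) and the microtubule protein MAP2 (1.29), and 5 lower, among them the neurofilament NEFL (-3.01). Of 7 tested adrenergic genes among 22, 4 were higher (GATA2 by 0.82, MAOA by 2.29, CHGB by 2.87 and HAND2) and 2 lower (TBX2 at -0.39 and SLC18A2 at -1.11). HAND2, a transcription factor of sympathetic neurons, had 0.840, 1.12 and 1.33 CPM in SPARK-ON libraries and 0.0543, 0.119 and 0.143 CPM in control libraries. Of 23 tested mesenchymal genes, 4 were higher and 9 lower. ENG, a TGF-beta co-receptor, was higher by 4.29, and WWTR1 and ZEB2 were lower by -1.42 and -1.19. Without control replicate 1 the mesenchymal list had 4 higher and 13 lower.

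Matrix and adhesion genes changed in both directions. Over all genes tested, 41.6% were called, 21.1% higher and 20.4% lower. Of 30 tested collagen genes, 11 were higher and 9 lower. COL1A2, a fibrillar collagen chain, had 4.86, 5.08 and 5.42 CPM in SPARK-ON libraries, against 53.6, 64.7 and 54.1 CPM in control libraries (-3.48, SE 0.13, adjusted p = 3.47e-13), and COL6A3 was higher by 1.81. Of 26 tested integrins and laminins, 14 were higher and 8 lower, with ITGB4 at -2.95 and LAMC3 at 1.59. Among matricellular genes, CCN3 (4.38), BGN (3.84) and FBLN1 (2.59) were higher and VCAN (-2.78) and LOX (-2.52) lower. CDH11, the mesenchymal cadherin, had 7.56, 9.30 and 10.7 CPM in SPARK-ON libraries and 111, 126 and 126 CPM in control libraries (-3.71), and CDH2 was lower by -1.84. Of 23 tested cadherin, desmosome and keratin genes, 6 were higher, among them KRT8 (3.30) and CLDN1 (2.29), and 8 lower, among them DSG2, CDH11 and CDH2. EPCAM, an epithelial marker, had 1 to 5 reads in SPARK-ON libraries and 0 in control libraries. Of 17 tested clustered protocadherins among 53, 10 were lower and none higher, with a median of -1.57. They sit side by side on chromosome 5 and their gamma genes share exons, so they are not independent genes. Some passed the filter only through the control line: PCDHB14, for example, had 2 reads in SPARK-ON libraries and 149 in control libraries. Such members could hardly be called higher, so the count and the median partly follow from the filter. PCDHB16 had 0 reads in SPARK-ON libraries and 1.03, 1.13 and 1.05 CPM in control libraries, at least 18.3-fold lower.

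Secreted factors and receptors were likewise split, to be read against 21.1% higher and 20.4% lower over all genes tested. Of 26 tested growth factor and IGF binding protein genes, 9 were higher and 9 lower. TGFA, an EGF receptor ligand, was lower by -2.98, and IGFBP4 and IGFBP7 were higher by 1.52 and 1.53. Of 29 tested receptor tyrosine kinases, 8 were higher, among them PDGFRB (1.99), NTRK2 (2.58) and MET (0.80), and 9 lower, among them EPHA3 (-1.16) and NTRK3 (-2.82). In the TGF-beta and BMP list 12 were higher and 11 lower of 32, with GDF15 at 1.53 and LTBP1 at -2.35, and SMAD2 (-1.44) and SMAD4 (-0.94) lying on chromosome 18. The Wnt list had 9 higher and 13 lower of 34, with WNT5A at 1.75 and WNT7B at -2.47. The Notch list had 4 higher and 8 lower of 18, with the ligand JAG2 at 2.78 and the receptor NOTCH1 at -1.25. In the retinoic acid list the retinaldehyde reductase DHRS3 changed by -3.41, and RARRES2 had 504 reads in SPARK-ON libraries and 0 reads in control libraries, at least 184-fold higher.

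Growth genes that Myc is known for had medians near 0. Of 24 tested Myc-responsive growth genes, 5 were higher and 6 lower with a median of 0.01, and of 42 ribosome biogenesis genes 5 were higher and 5 lower, also with a median of 0.01. NOLC1, a nucleolar protein, had 417, 410 and 435 CPM in SPARK-ON libraries and 329.5, 378 and 365 CPM in control libraries (0.23, adjusted p = 0.011), and was not called without SPARK-ON replicate 3. Cytosolic ribosomal protein genes differed from this. Of 76 tested, 57 were lower and none higher, with a median of -0.37. The 13 on chromosome 19 were all lower with a median of -0.93, and of the 63 elsewhere 44 were lower with a median of -0.31. These are short transcripts, and control replicate 1 was high in short genes: RPL13A had 1142, 1092 and 1221 CPM in SPARK-ON libraries, against 2809, 2045 and 2240 CPM in control libraries. Without that replicate 44 of the 76 were lower and the median was -0.21. The part of transcript length in this result was not tested further.

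Lists of translation, cell cycle, DNA damage, chaperone, lipid synthesis and stress genes had medians from -0.27 to 0.24. Some were called mostly in 1 direction, against 21.1% higher and 20.4% lower over all genes tested. Of 45 tested translation factors and tRNA synthetases, 6 were higher and 13 lower, with EEF2, an elongation factor on chromosome 19, at -0.85. Of 43 cell cycle and replication genes, 8 were higher and 11 lower, with CCND3 at 0.93 and CCND1 at -0.71, and total count scaling turned this split to 13 higher and 5 lower. Of 24 DNA damage response genes, 9 were higher and 1 lower, with PLK2 at 1.32, TP73 at 0.94 and GADD45A at 0.85. CDKN1A (0.13), a cell cycle inhibitor, and MDM2 (0.13), a ubiquitin ligase, were not called. Of 17 heat shock and chaperone genes, 11 were higher and 2 lower, with HSPB8, a small heat shock protein, at 2.14. Of 25 cholesterol and fatty acid synthesis genes, 12 were lower and none higher, with the regulator SREBF2 at -0.65. Total count scaling gave 10 lower and 1 higher of these. Of 22 stress response genes, 10 were lower, among them DDIT4 (-1.82) and CHAC1 (-1.80), and 2 higher, DDIT3 (0.65) and PPP1R15A (0.48).

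**Figure D4:**
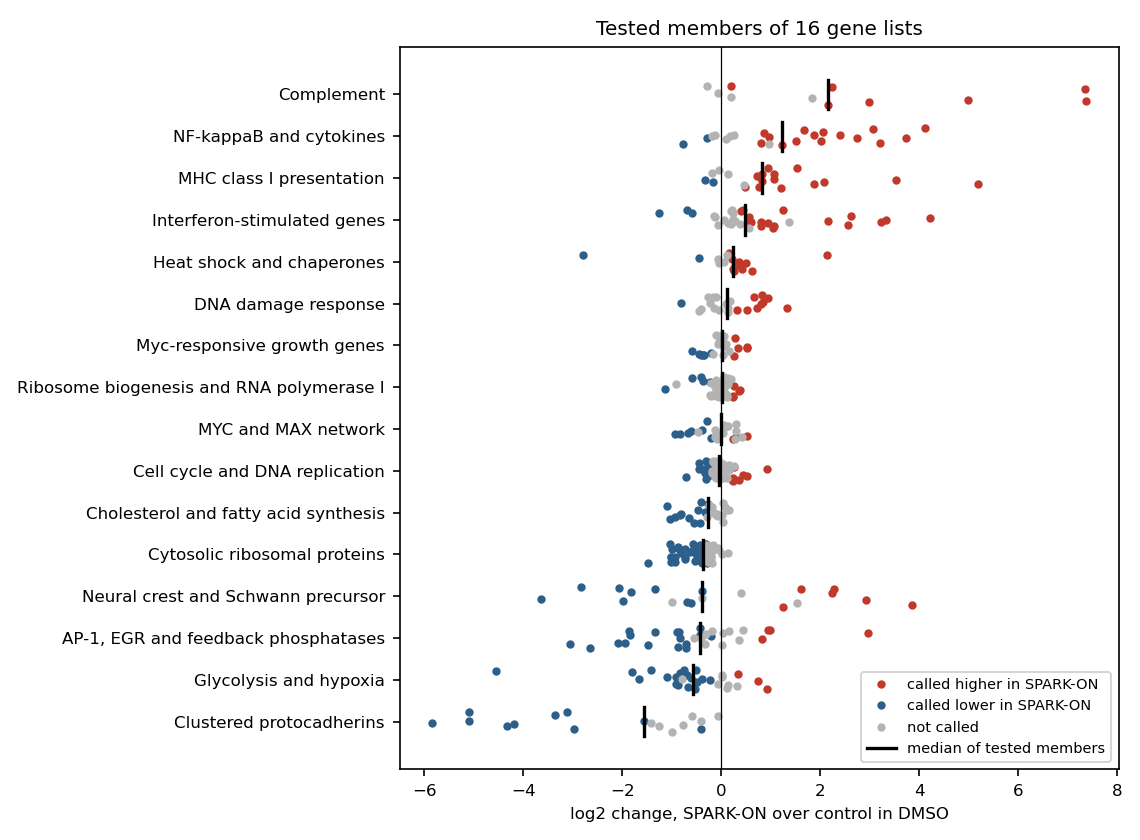
Log2 change, SPARK-ON over control in DMSO (x axis), of each tested member of 16 gene lists (rows); red points were called higher, blue lower and grey not called, and the black bar is the median of the tested members, with genes at 0 reads in a group drawn at their bound. Medians run from 2.16 for complement and 1.23 for NF-kappaB genes through about 0 for the Myc lists to -0.57 for hypoxia and -1.57 for clustered protocadherins. They cover tested members only, and members nearly unread in either line passed the filter through the other, which moves a median away from 0.

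The transcript of CRBN, which encodes the target of lenalidomide, was already lower in SPARK-ON cells before the compound was added. The counts say nothing of the protein. CRBN, cereblon, the ligase subunit that binds lenalidomide (ENSG00000113851.16, chromosome 3, 3144628 to 3179727), had 270, 258 and 242 CPM in SPARK-ON libraries, against 372, 367 and 395 CPM in control libraries. The groups did not overlap, and the change was -0.56 (SE 0.070, adjusted p = 3.72e-06). Of 18 tested genes of the cereblon ligase and its drug-induced substrates, 5 were higher and 5 lower. IKZF1, a lymphoid factor degraded with lenalidomide, had 49.98, 36.3 and 35.9 CPM in SPARK-ON libraries and 22.3, 19.8 and 21.6 CPM in control libraries (0.94). The substrate genes WIZ (-1.05) and GSPT1 (-0.38) were lower. The sequence of SPARK-ON was not examined here, and the counts cannot tell the CRBN and IKZF1 loci from any introduced sequence of these genes.

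Position in the genome also moved with the change. Of 232 tested genes on chromosome 18, 161 were lower (69.4%) and 13 higher, with a median of -0.79. Of 1097 on chromosome 19, 659 were lower (60.1%) and 84 higher, with a median of -0.58. Along chromosome 17 the start of the p arm differed from the rest: in the first 5 windows of 50 tested genes, from 212389 to 19867936, 152 of 250 genes were higher and 9 lower with a median of 0.61, and the later 15 windows had medians of -0.03 to 0.27. The 5 windows of chromosome 18 had medians of -1.11 to -0.48 and the 22 of chromosome 19 of -0.99 to -0.27, each with a shorter window at its end, against -0.32 to 0.39 in 273 windows outside these regions. Chromosome 19 took 5.79% to 5.87% of reads in SPARK-ON libraries and 7.56% to 8.48% in control libraries, and chromosome 18 took 0.699% to 0.708% in SPARK-ON libraries and 1.16% to 1.25% in control libraries. Copy number was not measured, and its part in these differences was not tested. NLRP1 lies in the higher stretch of chromosome 17, and DSG2, CDH2, SMAD2 and SMAD4 on chromosome 18. JUND, WIZ, GPI and EEF2 are among the lowered genes named above that lie on chromosome 19. Leaving out members on chromosomes 18 and 19, the NF-kappaB list had 12 higher and 1 lower of 19, the antigen presentation list 15 and 1 of 20, and the hypoxia list 3 and 17 of 27.

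**Figure D5:**
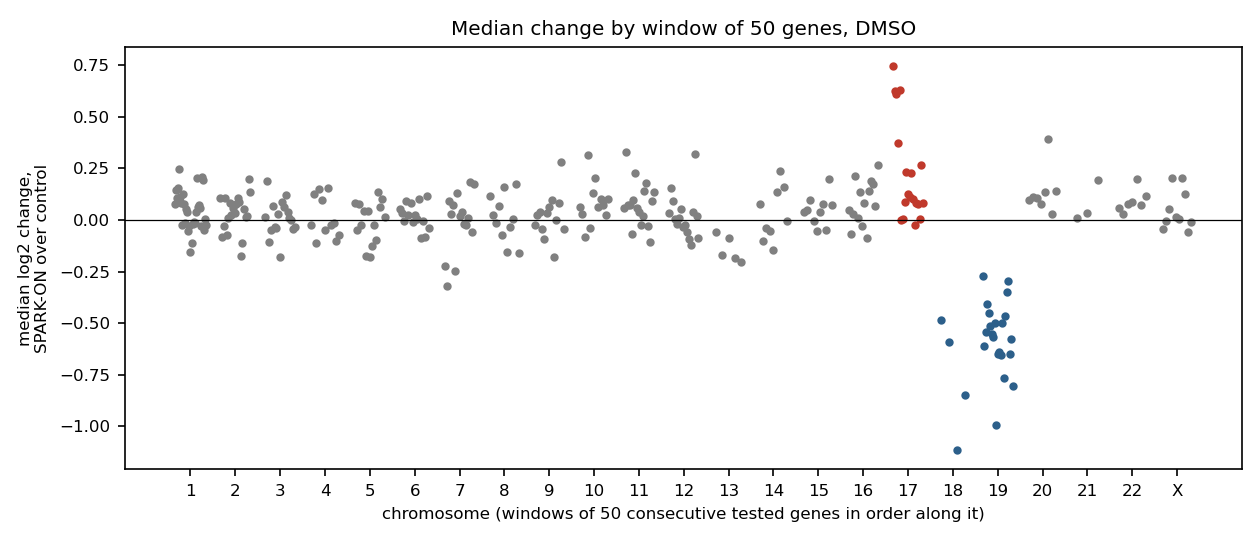
Median log2 change, SPARK-ON over control in DMSO (y axis), in 303 windows of 50 consecutive tested genes, ordered along each chromosome (x axis). Windows of chromosomes 18 and 19 (blue) all lie at -0.27 or below, and the first 5 of chromosome 17 (red, at the left of its points) at 0.37 to 0.75, while 273 windows elsewhere, the later ones of chromosome 17 included, lie at -0.32 to 0.39.

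The same lines were also sequenced with lenalidomide, in 3 SPARK-ON libraries and 2 control libraries. Their values enter no DMSO group mean, but the 11 libraries share 1 filter and 1 estimate of the spread, so the calls in the 2 conditions are not independent. There 6334 genes were called (39.4%), 3165 higher (19.7%) and 3169 lower (19.7%). Of the 6675 genes called in DMSO, 5235 (78.4%) were called in the same direction with lenalidomide and 6598 had the same sign. These libraries are of the same lines, so they repeat the measurement and not the making of the lines. NLRP1 changed by 10.54 in DMSO and 11.08 with lenalidomide, C3 by 7.37 and 7.11, HIF1A by -1.52 and -1.61, SOX9 by -2.84 and -2.58, and CRBN by -0.56 and -0.46. The NF-kappaB list had 15 higher and 2 lower in both conditions, the antigen presentation list likewise, and the hypoxia list 18 lower in both. Heat shock genes had 11 higher in DMSO and 4 with lenalidomide. A test of the difference itself was the interaction of line and treatment in edgeR's quasi-likelihood fit. It called 0 genes at an adjusted p below 0.05 and 669 at an unadjusted p below 0.05. The latter is fewer than the 803 that make up 5% of the genes tested. SPARK-ON lenalidomide replicate 3 had 6614671 counts, against 15980539 and 15769113 in replicates 1 and 2, and stood apart on the second component. It also enters the shared filter and spread. With this library and only 2 control libraries, 0 calls do not show that the line difference was the same with lenalidomide.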

How the data were processed

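The authors deposited 1 table of whole-number read counts for 61533 genes, without normalization. Per the submitters' processing notes, the tools were FastQC, fastp, HTSeq and edgeR, with genome hg38; versions, aligner, annotation release and strand setting are not given in the sources used here. Of the table's columns, 11 matched labelled samples and were used, while 3 matched none, so baseline SH-EP cells were not analysed here.

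Counts were fitted in R 4.3.3 with edgeR 4.0.16 (filterByExpr with minimum count 10, TMM, glmQLFit and glmQLFTest, two-sided) in a one-way layout of the 4 n-Myc groups, with 7 residual degrees of freedom, so the spread is shared with the lenalidomide libraries. The common biological coefficient of variation was 9.40%, but 4.57% in SPARK-ON and 13.6% in control DMSO libraries. P-values were adjusted by Benjamini-Hochberg over all 16056 genes, with a threshold of 0.05. The SE was taken as the absolute log2 change over the square root of F. DESeq2 1.42.0 and limma-voom (limma 3.58.1) were alternatives.

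Comparisons and 47 gene lists were chosen with earlier results of these data known, and the windows of 50 genes, the counts without chromosomes 18 and 19 and the omission of single lenalidomide libraries were added after seeing the data. Named genes come from a rule: the 15 largest changes each way among called genes with a mean of at least 5 CPM and no overlap, the 15 most abundant called genes with a log2 change of at least 1, the 6 smallest p of each list, and MYCN, MYC, MAX and CRBN. Further list members named beside these were picked with their values known. Gene names matched 61415 identifiers. Positions are from GENCODE 29 on GRCh38. Promoter windows are from RefSeq (GRCh38.p14) and matched 11366 of 16053 symbols tested. Plots used Python 3.11.15 and matplotlib 3.10.9. Some items are not reported here.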

Additional observations from a re-analysis of the deposited data

How the results depend on the processing

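The count of 6675 called genes (3395 higher, 3280 lower) stayed within 1.5 times under RLE and total count scaling, other filters, DESeq2, limma-voom and a fit of only the 2 groups compared. A log2 change of at least 1 left 2396 genes, 1574 higher and 822 lower, and a test against a log2 change of 1 (glmTreat) left 1288, 894 higher and 394 lower. Leaving out each library in turn gave 5576 to 6927 called genes, with 2854 to 3433 higher and 2716 to 3494 lower. With lenalidomide, leaving out each library gave 5055 to 5669, with 2471 to 2865 higher and 2584 to 2804 lower. Without either control lenalidomide library that arm has 1 library, which is assumed to vary like the other groups. No gene named among the 177 followed changed direction, and 1 of the 171 called lost its call apart from the test against a log2 change of 1. No value could be had for the other cell type markers at a minimum count of 30, since none was left.

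No pairing of the libraries by replicate number was seen: deviations of same-numbered libraries correlated at -0.0187, 0.0079 and -0.0487. So few values cannot exclude a pairing. With the replicate block 6081 genes were called (3116 higher, 2965 lower), and 5645 with lenalidomide. Depth limits genes below about 0.2 CPM, and floors cover counting error only.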

Other observations

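Some genes of glutathione, thioredoxin and quinone metabolism were looked up after their values were seen, so their number and direction say nothing of the group as a whole. AKR1C1, an aldo-keto reductase, had 59.8, 74.96 and 67.2 CPM in SPARK-ON libraries, against 4.72, 3.75 and 2.91 CPM in control libraries (4.15, SE 0.16, adjusted p = 7.14e-13). AKR1C genes are near-identical copies, so reads shared between them may be lost or assigned to the wrong copy. OSGIN1, an oxidative stress response gene, had 68.1, 74.1 and 73.8 CPM in SPARK-ON libraries and 10.6, 8.27 and 10.42 CPM in control libraries (2.88). GCLM and GCLC, the subunits of the enzyme that limits glutathione synthesis, were higher by 1.02 and 1.04, and the cystine transporter SLC7A11 by 0.68. TXN, with 0.15, HMOX1, with 0.18, and SRXN1, with 0.74, were not called. NFE2L2, whose product activates such genes, was lower by -0.35, and KEAP1, whose product restrains it, by -0.53. KEAP1 lies on chromosome 19, where 60.1% of tested genes were lower and the median change was -0.58.

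EPAS1, which encodes the other main oxygen-regulated subunit beside HIF1A and was also looked up after the values were seen, had 77.5, 76.9 and 77.2 CPM in SPARK-ON libraries, against 29.7, 32.9 and 36.4 CPM in control libraries (1.22, SE 0.088, adjusted p = 2.53e-09). Both sets of libraries were apart, and the direction was opposite to that of HIF1A.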
